A study of Mus musculus with 12 samples.

Results

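The Mediator kinase module is encoded by 7 genes, Cdk8, Cdk19, Ccnc, Med12, Med12l, Med13 and Med13l, chosen by name out of the 25759 genes counted in each library. Mediator is a large protein complex that carries signals from transcription factors to RNA polymerase II. Its kinase module binds the rest of the complex reversibly and holds 1 cyclin-dependent kinase (Cdk8 or its paralogue Cdk19), cyclin C (from Ccnc), a Med12 subunit that activates the kinase (Med12 or Med12l) and a Med13 subunit that links the module to core Mediator (Med13 or Med13l). The paralogues within each pair replace each other in the module, so that several forms of it can exist in 1 cell.

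RNA was sequenced from HATX3 mouse embryonic stem cells (ESCs), a diploid line of haploid origin. All samples carry a reverse tetracycline transactivator at the Rosa26 locus and an Xist allele behind a doxycycline-inducible promoter, so that doxycycline turns on Xist, the RNA that silences an X chromosome. The 4 groups of 3 libraries were WT cells without Xist expression (uninduced, replicates 1, 2 and 3), WT cells with 48 h of Xist expression (induced, replicates 1, 2 and 3), and Cdk8-/- cells (ΔCdk8, clones 8, 11 and 15) in the same conditions. The WT samples are the parental cells, which are not clonal, and each ΔCdk8 sample is a separate clone with a small homozygous deletion at the start of Cdk8. The sources used here do not say whether WT replicates of 1 condition were separate cultures, and p-values then measure the spread between these samples only.

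Between 22170087 and 60798578 reads per library fell on genes, of which 4.77% to 7.59% fell on introns. All 8 markers of ESCs had a mean TPM (a length-scaled share of the exon reads of a library) of at least 1 in each of the 4 groups, with summed levels of 3974 to 7544 TPM per library. Summed over 5 genes each, fibroblast feeder markers stood at 5.54 to 17.4 TPM in WT and 17.8 to 32.3 TPM in ΔCdk8 libraries, and primitive endoderm markers at 5.40 to 8.46 TPM and 5.41 to 10.8 TPM. Summed over 4 genes, primed or epiblast markers stood at 576, 914 and 1084 TPM in uninduced and 360, 542 and 639 TPM in induced WT replicates 1, 2 and 3, and at 313, 340 and 290 TPM in uninduced and 299, 279 and 273 TPM in induced clones 8, 11 and 15. Dnmt3b made up most of that sum. Thy1 made up most of the feeder sum, and Lum was at 0 in all 3 induced WT libraries. The part of these differences in the results was not tested, and in bulk RNA fewer cells of a type cannot be told apart from less RNA per cell. All 7 kinase module genes passed the filter on low counts in every comparison of exon reads.

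The 2 kinase genes are shown first by the coding part of exon 1. The deletion in the ΔCdk8 clones takes in the start codon there, and reads of paralogues can be confused where their sequences are shared. Each runs 5′ to 3′ on the forward strand of GRCm38 from the start codon, in capitals, to the end of the exon. Cdk8 (ENSMUSG00000029635) is shown from chr5:146231693-146231820 and Cdk19 (ENSMUSG00000038481) from chr10:40349594-40349721.
Cdk8: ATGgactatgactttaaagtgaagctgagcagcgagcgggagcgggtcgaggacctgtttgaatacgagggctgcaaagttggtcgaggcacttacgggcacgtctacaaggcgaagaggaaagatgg
Cdk19: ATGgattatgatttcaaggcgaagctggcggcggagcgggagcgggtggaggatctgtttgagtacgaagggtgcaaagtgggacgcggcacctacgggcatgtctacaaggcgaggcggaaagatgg
The stretches hold 128 bases each and were identical at 105 of them (82.0%) without gaps. Over the whole coding sequences, 1052 of 1391 aligned bases of Cdk8 and Cdk19 were identical (75.6%), and identity was 66.4% for Med12 with Med12l and 63.7% for Med13 with Med13l. The longest runs of bases shared by any transcripts of a pair were 23, 24 and 20 bases. Over the 12 libraries, 0 exon reads of the 7 genes and 49 of their intron reads were counted as mapping to more than 1 place, so that mixing of reads between the paralogues did not show in these tables. The Cdk8 transcript Cdk8-205 begins at an exon that ends before the start codon shown and has its own start codon further on, at position 146259557 of chromosome 5.

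The members lie on 6 chromosomes of GRCm38. Cdk8 spans chr5:146231230-146302874 and Cdk19 chr10:40339564-40483818, both on the forward strand. Ccnc spans chr4:21727701-21759922, Med12 chrX:101274030-101297465, Med12l chr3:59005825-59318682 and Med13l chr5:118560679-118765438, all on the forward strand, and Med13 spans chr11:86267033-86357602 on the reverse strand. Med12 is thus the member on the chromosome type that Xist acts on. In RefSeq's promoter windows of 300 bases on GRCm38.p6, found for 6 of the 7 genes and not for Cdk19, the number of CG dinucleotides was 24 for Ccnc, 27 for Med12, 30 for Med12l, 31 for Cdk8, 43 for Med13 and 61 for Med13l, against a median of 7 over 32851 promoters. The motif TATAAA was on neither strand of the 6 windows, and 13.6% of all promoters held it.

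In uninduced WT cells Cdk8 had the highest level of the members, with a TPM of 64.2, 69.4 and 74.2 in replicates 1, 2 and 3 (69.3±4.98, mean±SD, n = 3), above 80.2% of 11801 genes expressed at a mean TPM of at least 1. Below it in order were Med13l (22.5±3.69 TPM, SD, n = 3), Ccnc (20.6±2.69 TPM), Med12 (19.8±1.32 TPM), Med13 (18.8±2.82 TPM), Cdk19 (6.50±2.57 TPM) and Med12l (0.914±0.794 TPM). The ranges of Med13l, Ccnc, Med12 and Med13 overlapped, so that their order was within the spread between replicates. Cdk8 lay above all other members in each of the 4 groups, since its lowest TPM, 33.4 in induced clone 8, was still above the highest of Med13l, 32.7. Cdk19 and Med12l did not overlap in WT cells but overlapped in ΔCdk8 cells.

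**Figure D1:**
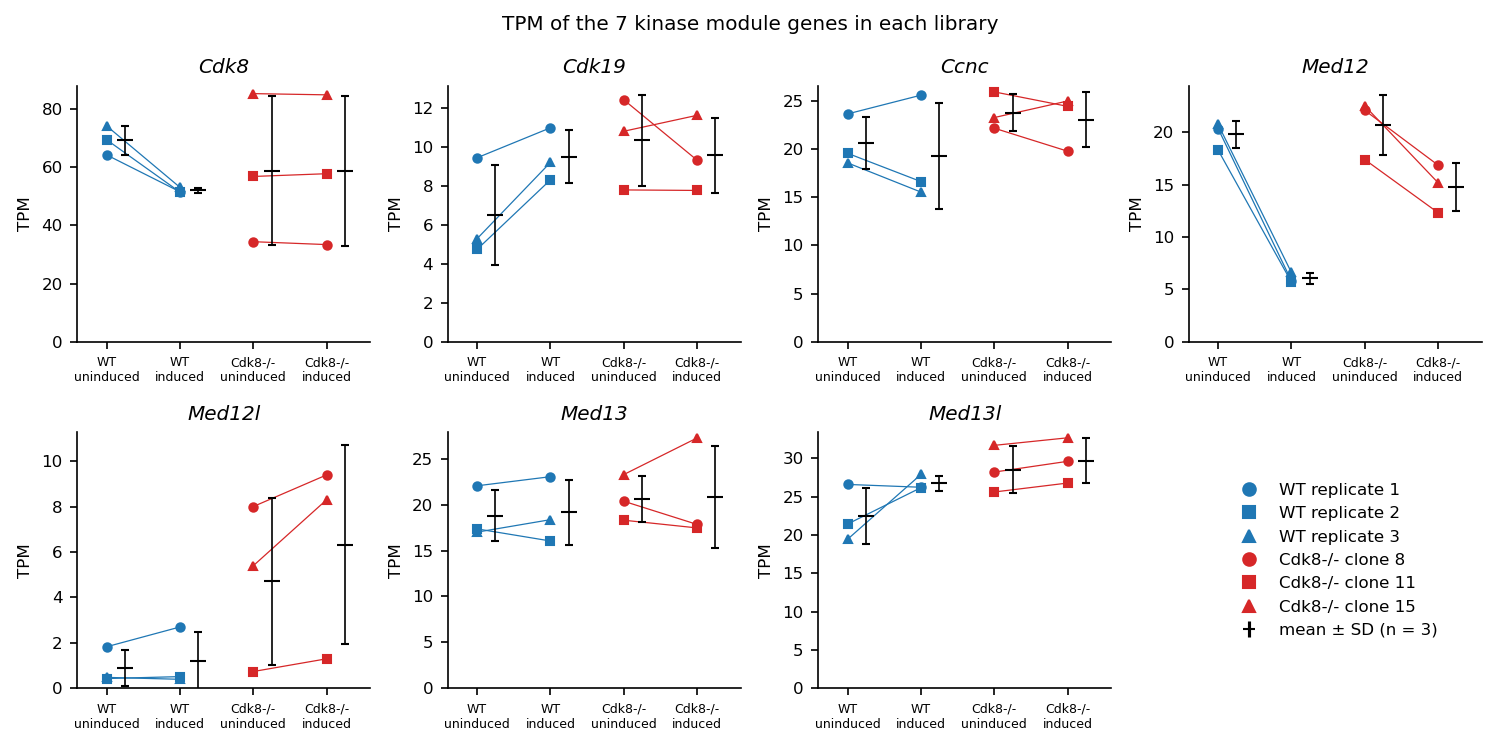
TPM of the 7 genes (vertical axes, from 0) in each of the 12 libraries, by group, with lines joining libraries of the same replicate or clone and black bars for the mean and SD of 3 libraries, drawn down to 0 only. Med12 falls from 18.3 to 20.8 TPM to 5.70 to 6.62 TPM in WT replicates, Cdk8 ranges from 33.4 to 85.3 TPM among the clones, and Med12l is above 5 TPM in clones 8 and 15 and at most 2.70 TPM in the other libraries.

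Exon reads on Cdk8, the kinase that was mutated, were not reduced to near 0 in the mutant libraries. The TPM was 34.4 in clone 8, 56.8 in clone 11 and 85.3 in clone 15 without induction, and 33.4, 57.8 and 84.9 with it. Clones 8 and 11 lay below and clone 15 above all 3 uninduced WT libraries, and each clone was at nearly the same level in both conditions. The deposited count covers 3031 bases of exon, nearly all of which lie outside the small deletion, and reads were not given by position, so that these values do not check the genotype. ΔCdk8 over WT had a log2 fold change of −0.39 (s.e., the standard error of the log2 fold change, 0.28, adjusted p = 0.427, edgeR quasi-likelihood test with Benjamini-Hochberg adjustment) in uninduced and 0.02 (s.e. 0.29, adjusted p = 0.964, same edgeR test) in induced cells. The value in uninduced cells was −0.11 without clone 8 and −0.66 without clone 15, and in induced cells it was 0.30 and −0.24.

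Junction-spanning reads on Cdk8 made up 48.8% to 54.5% of its exon reads over the 12 libraries. They were 51.0±1.49% in uninduced WT and 49.9±1.61% in uninduced ΔCdk8 libraries (SD, n = 3 each), so that spliced Cdk8 RNA made up a similar share of exon reads, with overlapping ranges. The largest spread of Cdk8 TPM among clones was a factor of 2.54 in the induced libraries, against 1.03 among the induced WT libraries.

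In WT cells the TPM of Cdk8 was 64.2, 69.4 and 74.2 without induction and 51.6, 51.5 and 53.1 with it. All 3 induced WT libraries lay below all 3 uninduced ones, as was so for 14.4% of genes. On the log2 scale the change was −0.37 (s.e. 0.10, adjusted p = 0.0979 by edgeR), short of the threshold for a call (more than 2-fold, with an adjusted p under 0.01). With the replicate number as a block it was also −0.37 (s.e. 0.07, adjusted p = 0.0156, edgeR), and the adjusted p was 0.145 without replicate 2 and 0.123 without replicate 3 (edgeR with the block). DESeq2, another count test, gave an adjusted p of 0.00687, with the change still below 2-fold. Of all genes, 4.71% passed by DESeq2 in this comparison and 3.98% with the block. Relative to the uninduced library of the same number, induced Cdk8 was 0.803, 0.741 and 0.716 in WT replicates 1, 2 and 3 and 0.971, 1.02 and 0.995 in clones 8, 11 and 15. These ratios did not overlap (0.753±0.0449 against 0.994±0.0228, exact permutation test, two-sided p = 0.1, the smallest that 3 against 3 allows), as was so, with the clones higher, for 14.1% of 12079 genes. The difference between the 2 induction effects was 0.43 on the log2 scale (s.e. 0.44, adjusted p = 0.99986, edgeR) and 0.43 with the block (s.e. 0.09, adjusted p = 0.0255, edgeR). Its adjusted p with the block was 0.00794 without WT replicate 1 and 0.0822 to 0.113 without any other replicate or clone (edgeR). The nearest expressed genes, Rnf6 and Wasf3, had an induced over uninduced TPM of 0.854 and 0.820 in WT and 0.936 and 0.927 in ΔCdk8 cells.

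Reads on Cdk8 introns outnumbered its exon reads in every library. Over all libraries 86.9% of Cdk8 gene reads were intronic, more than in 99.4% of 11608 genes with at least 1000 reads, for which the median was 7.31%. The share was 23.1% for Cdk19, 16.7% for Med12l, 12.6% for Ccnc, 6.43% for Med12, 3.25% for Med13l and 2.73% for Med13. Per base, intron reads of Cdk8 reached between 10.5% and 119% of the density of its exon reads, against at most 5.88% for any other member.

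Scaled to RPM (intron reads over all gene reads of the library, as TPM is scaled but without length), Cdk8 intron reads were 264, 446 and 209 in uninduced WT replicates 1, 2 and 3 and 334, 1668 and 253 after induction. They were 540, 474 and 360 in clones 8, 11 and 15 without induction and 474, 721 and 283 with it. Induced WT replicate 2 stood apart with the highest value, and the 7.97-fold range over the libraries was larger than that of 95.3% of 6495 genes, for which the median range was 2.79-fold. Among the members the range was wider for Med12 (18.9-fold) and Med12l (84.9-fold), both with far fewer intron reads. The exon reads of the same induced WT libraries were close to each other, at 65.3, 65.9 and 67.6 RPM of exon reads in replicates 1, 2 and 3. The intron share of Cdk8 reads was 77.4±6.98% in uninduced WT and 86.5±7.15% in uninduced ΔCdk8 libraries, a difference of 9.13 percentage points (exact permutation test, two-sided p = 0.2, n = 3 each) that was 5.61 points without WT replicate 3 and 5.79 points without clone 8. The shares were 86.9±8.55% and 86.2±9.65% after induction. On intron reads the log2 fold change of induced over uninduced WT cells was 1.14 (s.e. 0.64, adjusted p = 0.467, edgeR), and on all gene reads it was 1.09, opposite in sign to that of exon reads. The intron value rested on replicate 2, since it was 0.05 without that replicate (adjusted p = 0.994, edgeR), and with the block over all 3 replicates it was 0.62 (adjusted p = 0.106, edgeR).

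**Figure D2:**
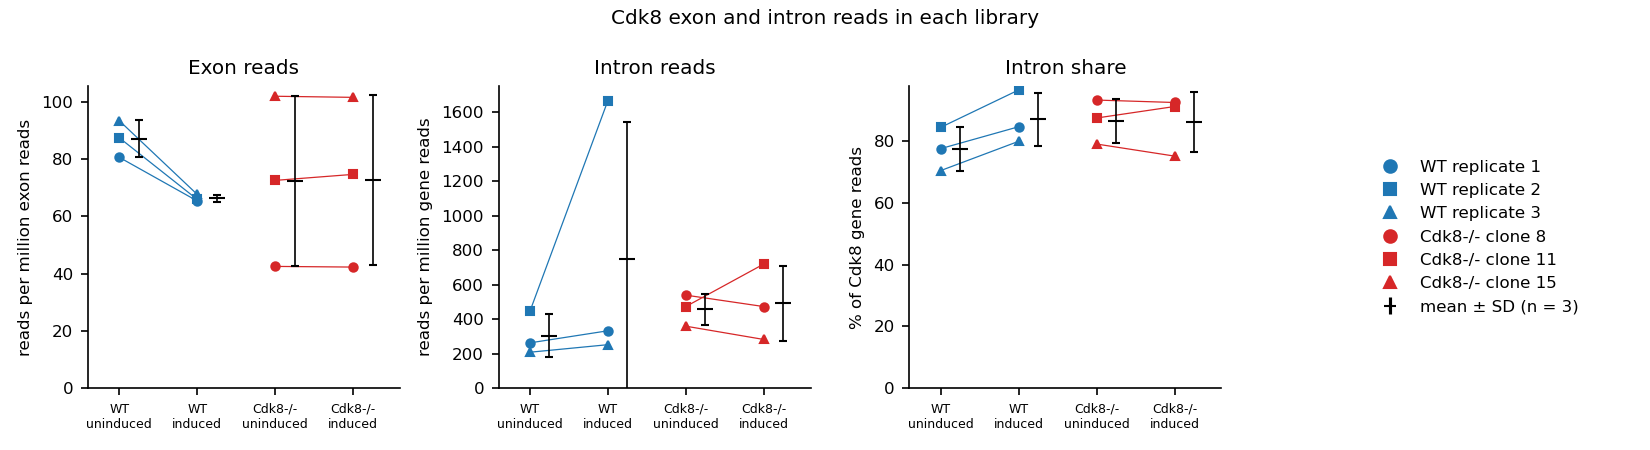
Cdk8 exon reads (RPM of exon reads), intron reads (RPM of gene reads), and intron reads as a percentage of Cdk8 gene reads (vertical axes, from 0) in the 12 libraries by group, with black bars for the mean and SD of 3 libraries, drawn down to 0 only. Intron reads reach 1668 RPM in induced WT replicate 2, while exon reads of the 3 induced WT libraries lie between 65.3 and 67.6 RPM.

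The exon lengths in the tables equal the joint exons of the coding and nonsense-mediated-decay transcripts of GENCODE vM21 for all 7 genes. For Cdk8 these are 5 of 9 transcripts, and the other 4 (retained-intron and processed transcripts) add 6801 exonic bases that were counted as intron. The same step adds 6104 bases for Med13l, 747 for Ccnc, 644 for Med12, 294 for Med13, 39 for Cdk19 and 0 for Med12l. The processed pseudogene Gm15739, which has no entry in the tables, lies in the first intron of Cdk8 on the same strand, at chr5:146248551-146249422. How many of the Cdk8 intron reads fell on these features could not be read from counts per gene. Among 6500 genes with a mean of more than 2 RPM of intron reads, those whose intron reads were most like Cdk8's over the 12 libraries were Gphn (Pearson r = 0.888 of log2 values), Cmss1 (0.879) and Camk1d (0.844), a comparison chosen after the values were seen. Libraries of the same genotype, clone or replicate number are among the 12, so that these coefficients are a description.

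Cdk19, the other kinase, was lower than Cdk8 in every library. Its TPM was 9.46, 4.75 and 5.30 in uninduced and 11, 8.32 and 9.22 in induced WT replicates 1, 2 and 3. It was 12.4, 7.80 and 10.8 in clones 8, 11 and 15 without induction and 9.33, 7.78 and 11.6 with it. Uninduced WT replicate 1 lay within the range of the clones and the other 2 uninduced WT replicates below all of them, so that the genotypes overlapped. ΔCdk8 over WT had a log2 fold change of 0.52 (s.e. 0.30, adjusted p = 0.348, edgeR) in uninduced and −0.13 (s.e. 0.21, adjusted p = 0.709, edgeR) in induced cells. The uninduced value was 0.89 without WT replicate 1 (adjusted p = 0.0874, edgeR), whose TPM stood above those of the other 2 WT replicates, and 0.34 to 0.62 without any other library.

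All 3 WT replicates had more Cdk19 after induction. In the same 3 pairs the primed marker sum given above was lower after induction, with Otx2 at 27.2, 92.9 and 77.0 TPM before and 11.5, 33.6 and 38.4 TPM after. Otx2 was also lower after induction in clones 8, 11 and 15, at 17.5, 29.1 and 12.9 TPM before and 4.49, 17.9 and 8.32 TPM after. The part of these marker changes in the level of Cdk19 was not tested. The ratio of induced to uninduced TPM was 1.16, 1.75 and 1.74 in WT replicates (1.55±0.337) and 0.750, 0.997 and 1.08 in clones 8, 11 and 15 (0.941±0.170), with no overlap (exact permutation test, two-sided p = 0.1, n = 3 each). Of all genes, 15.4% had ratios in the clones below all those in WT. In WT cells the log2 fold change was 0.59 (s.e. 0.28, adjusted p = 0.298, edgeR) and 0.64 with the block (s.e. 0.17, adjusted p = 0.0409, edgeR). With the block it was 0.84 without replicate 1 (adjusted p = 4.28e-05, edgeR), 0.54 without replicate 2 (adjusted p = 0.211, edgeR) and 0.52 without replicate 3 (adjusted p = 0.201, edgeR). Its difference between genotypes was −0.64 (s.e. 0.36, adjusted p = 0.99986, edgeR) and −0.69 with the block (s.e. 0.21, adjusted p = 0.0869, edgeR).

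Cdk8 made up 87.2%, 93.6% and 93.3% of the summed TPM of both kinases in uninduced WT replicates 1, 2 and 3 and 82.4%, 86.1% and 85.2% in induced ones. In clones 8, 11 and 15 the share was 73.4%, 87.9% and 88.7% without induction and 78.2%, 88.1% and 87.9% with it. Clone 8 held the lowest share in both conditions. The share in uninduced cells differed by −7.99 percentage points between ΔCdk8 and WT (83.4±8.60% against 91.4±3.64%, exact permutation test, two-sided p = 0.3, n = 3 each). The difference was −3.03 points without clone 8 and 0.177 points in induced cells. These shares are of RNA, and in the mutant they count Cdk8 transcripts from the deleted alleles.

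**Figure D3:**
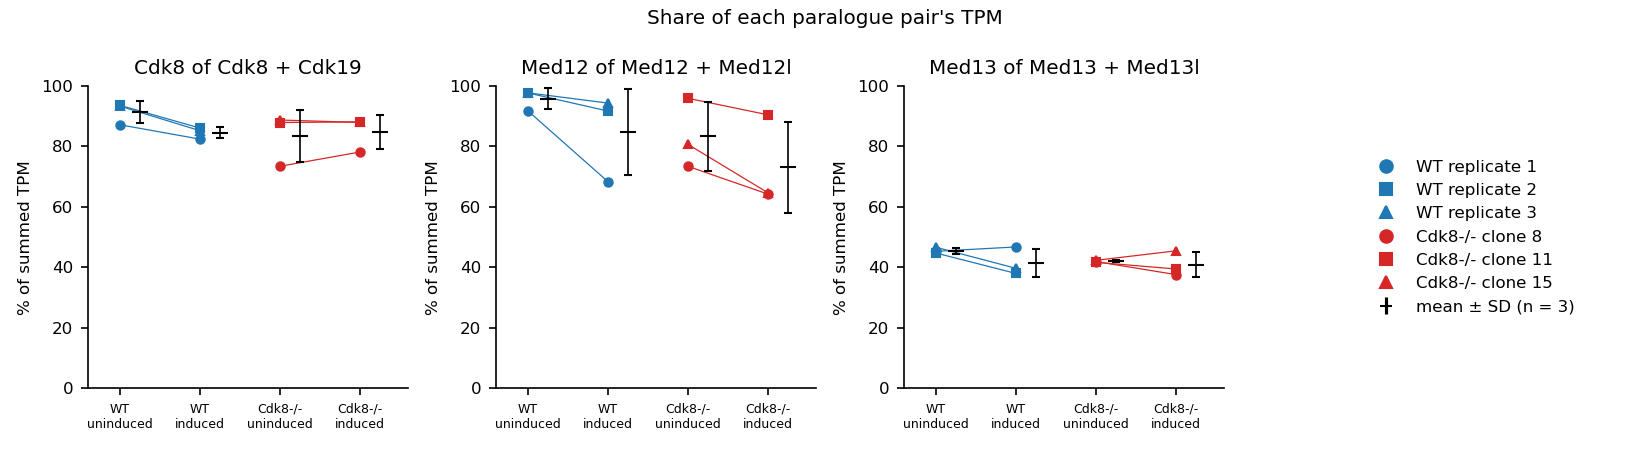
Share of the first-named gene in the summed TPM of each paralogue pair (vertical axes, 0 to 100%) in the 12 libraries by group, with black bars for the mean and SD of 3 libraries. Clone 8 has the lowest Cdk8 share (73.4% and 78.2%), and the Med13 share lies between 37.6% and 46.8% in all libraries.

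Ccnc, which encodes the cyclin that both kinases need, had overlapping exon levels in all groups. Its TPM was 23.6, 19.6 and 18.6 in uninduced and 25.6, 16.6 and 15.5 in induced WT replicates 1, 2 and 3. In clones 8, 11 and 15 it was 22.2, 25.9 and 23.3 without induction and 19.8, 24.4 and 25 with it. The groups overlapped in all 4 comparisons of 2 groups, and the log2 fold changes lay between −0.07 and 0.14. Its intron reads were 3.93, 2.92 and 3.28 RPM in uninduced WT replicates 1, 2 and 3 and 6.70, 4.98 and 5.89 RPM in uninduced clones 8, 11 and 15, without overlap, as was so for 20.8% of genes with the clones higher. On these reads the log2 fold change between genotypes was 0.45 (s.e. 0.22, adjusted p = 0.326, edgeR) in uninduced and 0.59 (s.e. 0.29, adjusted p = 0.226, edgeR) in induced cells. The 3′ end of Ccnc overlaps Tstd3 on the opposite strand.

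Med12, the X-linked subunit that activates the kinase, fell after Xist induction in WT cells. Its TPM was 20.4, 18.3 and 20.8 in uninduced WT replicates 1, 2 and 3 and 5.83, 5.70 and 6.62 after induction. The groups were far apart and each was narrow. Induction gave a log2 fold change of −1.67 (s.e. 0.13, adjusted p = 0.00268, edgeR), and Med12 was the 1 member of 7 that passed the threshold, which 1.07% of 13342 genes passed (1.42% with all 12 libraries in 1 fit, and 4.26% at an adjusted p under 0.05 without a fold minimum). Of 463 X-linked genes, 120 (25.9%) passed. With the replicate block the value was also −1.67 (s.e. 0.09, adjusted p = 0.000626, edgeR). Without replicate 2 the adjusted p was 0.135 and without replicate 3 it was 0.112 (edgeR), where 0 genes of the whole table passed, but with the block Med12 passed without any 1 replicate.

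In ΔCdk8 cells Med12 was 22.1, 17.4 and 22.5 TPM without induction and 16.9, 12.3 and 15.2 TPM with it, in clones 8, 11 and 15. All 3 induced libraries lay below all 3 uninduced ones, as was so for 3.6% of genes. This was a log2 fold change of −0.44 (s.e. 0.17, adjusted p = 0.99987, edgeR), and −0.44 with the block (s.e. 0.08, adjusted p = 0.00146, edgeR), which is below 2-fold. By edgeR with the block 1.42% of genes passed. None of the members passed the threshold here without the block, nor did any other gene, while 341 genes (2.41%) had an unadjusted p under 0.05 and DESeq2 passed 31 (0.219%).

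Uninduced, Med12 did not separate the genotypes (log2 fold change −0.09, standard error 0.13, adjusted p = 0.700, edgeR). Induced, all 3 ΔCdk8 libraries, at 12.3 to 16.9 TPM, lay above all 3 WT libraries, at 5.70 to 6.62 TPM, as did 18.3% of genes. The log2 fold change was 1.15 (s.e. 0.20, adjusted p = 0.0593, edgeR), with 0 genes past the threshold in this comparison of 6 libraries, 3437 genes (25.4%) at an unadjusted p under 0.05, 4 (0.0296%) at an adjusted p under 0.05 and 747 genes past it by DESeq2 (5.52%). Med12 passed by DESeq2 (log2 fold change 1.13, adjusted p = 1.48e-05) and with all 12 libraries in 1 edgeR fit (1.15, adjusted p = 0.00316), where 0.929% of genes passed.

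The ratio of induced to uninduced Med12 TPM was 0.286, 0.312 and 0.319 in WT replicates 1, 2 and 3 and 0.763, 0.709 and 0.674 in clones 8, 11 and 15. The 2 genotypes did not overlap, as was so, with the clones higher, for 14.1% of genes, and the difference was 0.410 (0.306±0.0171 against 0.715±0.0449, exact permutation test, two-sided p = 0.1, the smallest possible, n = 3 each). The difference of the induction effects on the log2 scale was 1.25 without the block (s.e. 0.20, adjusted p = 0.0901, edgeR), where 0 genes passed, 564 (3.91%) had an unadjusted p under 0.05 and DESeq2 passed 32 (0.222%), Med12 among them (1.23, adjusted p = 1.81e-06). With the block it was 1.25 (s.e. 0.12, adjusted p = 0.00127, edgeR) and passed, as did 1.01% of genes and 17.6% of 529 X-linked genes. It did not pass with the block without clone 8 (1.18, adjusted p = 0.0136, edgeR) or without clone 15 (1.29, adjusted p = 0.0132, edgeR).

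Among X-linked genes Med12 was in the middle in WT cells and in the upper part in ΔCdk8 cells. In WT replicates 1, 2 and 3, 40.4%, 47.0% and 58.4% of 428 X-linked genes had a lower ratio than Med12. In clones 8, 11 and 15 the share was 81.1%, 65.5% and 67.5% of 449 genes. Over all expressed X-linked genes the ratio had a median of 0.314±0.0368 in WT and 0.589±0.0192 in ΔCdk8 cells (SD, n = 3 each). For the 21 expressed genes within 1 Mb of Med12, ratios were taken within each replicate or clone number and averaged. The median over these genes was 0.264 in WT and 0.565 in ΔCdk8 cells. The nearest on each side were Il2rg, which encodes a cytokine receptor subunit, at 0.156 and 0.446, and Zmym3 at 0.524 and 0.674.

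Intron reads of Med12 were few, at 14 to 381 per library. In RPM they were 2.06, 1.60 and 2.58 in uninduced and 0.944, 0.947 and 0.332 in induced WT replicates 1, 2 and 3, with no overlap, as was so for 3.63% of 6501 genes. For clones 8, 11 and 15 they were 5.67, 2.53 and 3.85 without induction and 6.27, 1.88 and 3.96 with it. These RPM values are relative to all gene reads, of which introns took 6.87%, 5.39% and 5.73% in the uninduced and 7.59%, 5.38% and 7.25% in the induced clones, while the fits below scale by intron reads. The log2 fold change of induced over uninduced WT cells was −1.75 (s.e. 0.38, adjusted p = 0.0411, edgeR) and with the block −1.81 (s.e. 0.34, adjusted p = 0.00121, edgeR), which passed, as did 3.75% of genes. By DESeq2 it passed too, beside 2.2% of genes. In induced cells, ΔCdk8 over WT, it was 2.12 (s.e. 0.44, adjusted p = 0.0394, edgeR), and 0.00878% of genes passed in that comparison by edgeR. By DESeq2 Med12 passed, beside 4.9% of genes. Their RPM did not overlap in induced cells, as was so, with the clones higher, for 12.9% of genes. On induction in ΔCdk8 cells the log2 fold change was −0.20 (s.e. 0.32, adjusted p = 0.99998, edgeR), within 1 standard error of the exon value, and between genotypes in uninduced cells it was 0.58 (s.e. 0.27, adjusted p = 0.309, edgeR), where exon reads had −0.09. The interaction on intron reads was 1.55 (s.e. 0.52, adjusted p = 0.99996, edgeR) and 1.59 with the block (s.e. 0.36, adjusted p = 0.0242, edgeR), and neither passed, nor did it by DESeq2 (adjusted p = 0.729).

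**Figure D4:**
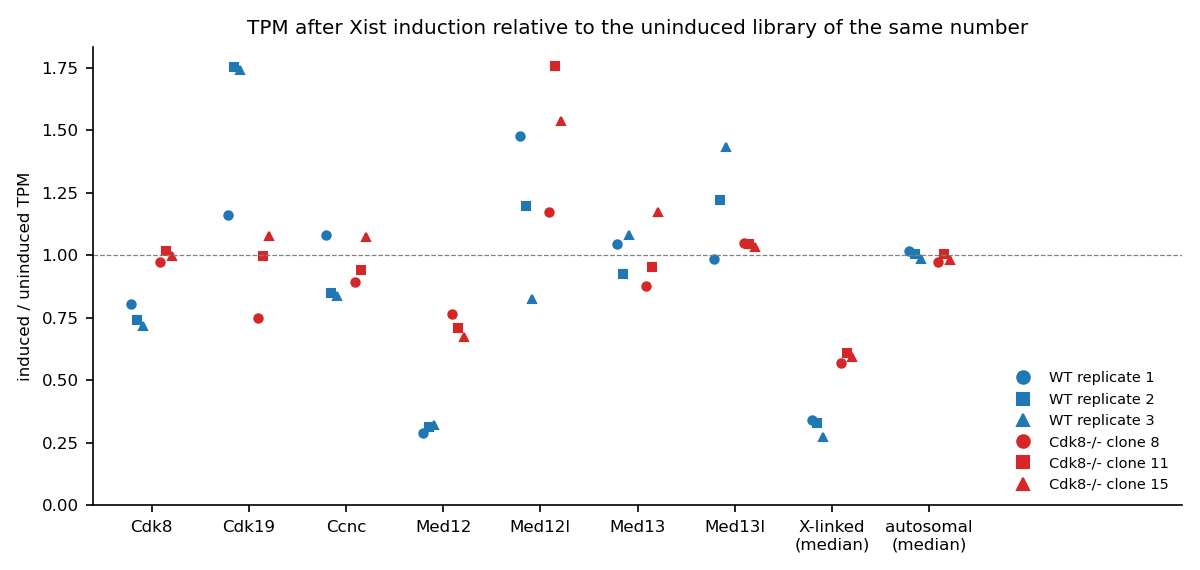
TPM in the induced library divided by TPM in the uninduced library of the same replicate or clone (vertical axis, linear, from 0) for the 7 genes, and the median over expressed X-linked and autosomal genes, with 1 point per replicate or clone and a dashed line at 1. For Med12, WT points lie at 0.286 to 0.319 and ΔCdk8 (Cdk8-/-) points at 0.674 to 0.763, and for Cdk8 and Cdk19 the genotypes do not overlap either.

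Med12l, the autosomal paralogue of Med12, varied more than any other member. Its TPM was 1.83, 0.430 and 0.481 in uninduced and 2.70, 0.515 and 0.397 in induced WT replicates 1, 2 and 3. In clones 8, 11 and 15 it was 8.0, 0.738 and 5.39 without induction and 9.39, 1.30 and 8.30 with it. Clones 8 and 15 were high in both conditions, while clone 11 lay within the WT range. The log2 fold change of ΔCdk8 over WT was 2.18 in uninduced cells (s.e. 0.87, adjusted p = 0.232, edgeR) and 2.25 in induced cells (s.e. 0.88, adjusted p = 0.167, edgeR). With 1 replicate or clone left out the value ranged from 1.53 (without clone 8) to 3.18 (without WT replicate 1) in uninduced cells and from 1.80 to 3.6 (without the same libraries) in induced cells, with adjusted p-values of 0.0515 or more and 0.0547 or more (edgeR), the lowest without clone 11.

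The 6 libraries with the most Med12l RNA, those of clones 8 and 15 and of WT replicate 1, also had the highest summed TPM of 5 trophoblast markers (Cdx2, Eomes, Krt8, Krt18 and Tfap2c). The sum was 154, 42.9 and 64.5 in uninduced and 200, 26.5 and 40.7 in induced WT replicates 1, 2 and 3. It was 237, 80.2 and 547 in uninduced and 213, 79.7 and 471 in induced clones 8, 11 and 15. Krt8 and Krt18 made up most of the high sums, and Cdx2, which defines this lineage, was at 0.0630 to 1.41 TPM. The median of 530 expressed genes of chromosome 3, where Med12l lies, relative to the uninduced WT mean and on the log2(TPM + 1) scale, was 0.59 in clone 8, −0.04 in clone 11 and 0.78 in clone 15 without induction, against 0.12, −0.03 and 0.18 over all genes. For the 6 expressed genes within 1 Mb of Med12l the median difference between uninduced ΔCdk8 and WT means on that scale was 0.41, with 1.74 for Siah2, a ubiquitin ligase gene, and 0.48 for Igsf10, the nearest on each side, against 1.58 for Med12l. The part of these values in the level of Med12l was not tested. Genes on the opposite strand, P2ry12 and Igsf10 among them, overlap Med12l, and whether the reads were counted by strand is not given in the sources used here.

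Within clones Med12l was higher after induction in all 3, with ratios of 1.17, 1.76 and 1.54, and in WT replicates 1, 2 and 3 the ratios were 1.48, 1.20 and 0.824. The log2 fold change in ΔCdk8 cells was 0.48 (s.e. 0.89, adjusted p = 0.99987, edgeR) without and 0.56 (s.e. 0.11, adjusted p = 0.00234, edgeR) with the block, below 2-fold. In the pair, Med12 made up 91.8%, 97.7% and 97.7% of the summed TPM in uninduced and 68.3%, 91.7% and 94.3% in induced WT replicates. In clones 8, 11 and 15 it was 73.4%, 95.9% and 80.7% without induction and 64.2%, 90.5% and 64.7% with it. The lowest shares thus belonged to induced clones 8 and 15 and to induced WT replicate 1.

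Med13 and Med13l, the subunits that join the module to core Mediator, were expressed at similar levels in all groups. Med13 was 22.1, 17.4 and 17.0 TPM in uninduced and 23.0, 16.0 and 18.4 TPM in induced WT replicates 1, 2 and 3, and 20.4, 18.3 and 23.3 TPM in uninduced and 17.9, 17.5 and 27.3 TPM in induced clones 8, 11 and 15. Its log2 fold changes lay between −0.02 and 0.06 in all comparisons of 2 groups, smaller than their standard errors. Med13l was 26.6, 21.4 and 19.5 TPM in uninduced and 26.2, 26.2 and 27.9 TPM in induced WT replicates, and 28.2, 25.6 and 31.7 TPM in uninduced and 29.6, 26.8 and 32.7 TPM in induced clones. The 2 lowest Med13l values were those of uninduced WT replicates 2 and 3, and all comparisons of 2 groups overlapped in TPM. The largest log2 fold change of Med13l, 0.29 for induced over uninduced WT cells, had a standard error of 0.14 and an adjusted p of 0.302 (edgeR). Intron reads of Med13l were 2.60, 2.27 and 2.19 RPM in uninduced and 4.63, 2.84 and 3.22 RPM in induced WT replicates, and 3.34, 2.86 and 2.79 RPM in uninduced clones. The uninduced WT libraries lay below both other groups, as was so for 20.5% of genes against induced WT cells and for 20.8% against the clones. On the same reads edgeR gave log2 fold changes of 0.38 for induction in WT cells (s.e. 0.23, adjusted p = 0.497) and 0.02 between genotypes in uninduced cells (s.e. 0.24, adjusted p = 0.979).

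**Figure D5:**
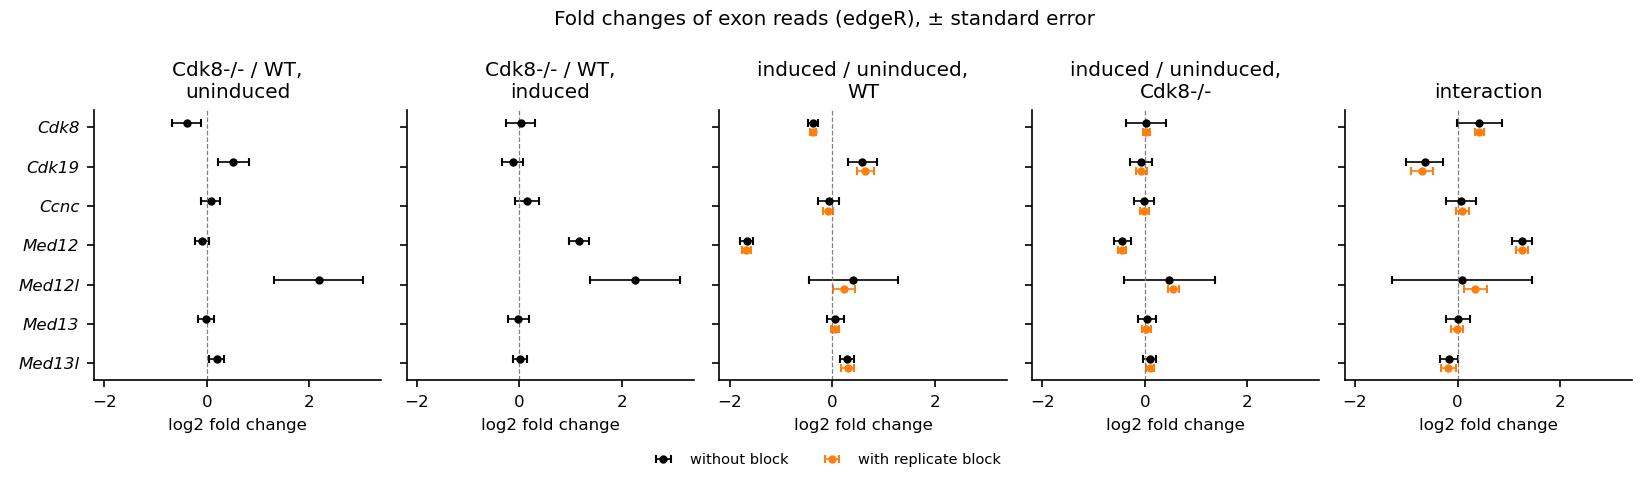
Log2 fold changes of exon reads with their standard errors (horizontal axes, log2 scale) for the 7 genes in 4 comparisons of 2 groups and in the interaction of genotype and induction, from edgeR without the replicate block (black) and with it (orange, where both groups share replicate or clone numbers). Med12 lies at −1.67 for induction in WT, at −0.44 in ΔCdk8 (Cdk8-/-) cells and at 1.25 in the interaction, and Med12l at 2.18 and 2.25 between genotypes with standard errors of 0.87 and 0.88.

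Counted over the members, 0 of 7 passed the threshold between genotypes in uninduced cells (0% of 13961 genes, 2821 genes or 20.2% at an unadjusted p under 0.05, 345 past it by DESeq2, or 2.47%). The members' median log2 fold change was 0.07 there, beside 0.02 over all genes. In induced cells the counts were 0 of 7 and 0 genes, with a median of 0.02 against 0.03. For induction the median was 0.06 in WT cells, with 1 of 7 past the threshold (1.07% of all genes), and 0.03 in ΔCdk8 cells, with 0 of 7 (0% of all genes), beside medians of 0.03 and 0.02 over all genes. With the block and an adjusted p under 0.05 without a fold minimum, 3 members changed on induction in WT cells (Med12 and Cdk8 lower, Cdk19 higher), which 23.2% of genes did, and 2 in ΔCdk8 cells (Med12 lower, Med12l higher), which 10.8% of genes did. In the interaction by the same rule 2 of 7 passed, Med12 and Cdk8, beside 5.78% of genes. The comparisons share libraries, so that these counts are not independent of each other.

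Other Mediator and transcription kinase genes were counted for comparison, in lists chosen with earlier results of these data known. Of 26 core Mediator genes, all tested, 1 passed on exon reads in induced against uninduced WT cells, with and without the block (beside 3.98% and 1.07% of all genes), and 0 in the other comparisons of exon reads by edgeR with all libraries. It was Med14, the X-linked backbone subunit of Mediator (log2 fold change −1.25, standard error 0.10, adjusted p = 0.00268, edgeR), which had −0.59 in ΔCdk8 cells (s.e. 0.23, adjusted p = 0.99987, edgeR). The block gave −0.60 there (s.e. 0.08, adjusted p = 6.63e-05, edgeR). In the interaction Med14 had 0.68 (s.e. 0.25, adjusted p = 0.99986, edgeR) and with the block 0.66 (s.e. 0.10, adjusted p = 0.00666, edgeR), below 2-fold.

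Between genotypes the member of the core list with the largest change was Med22, at −0.95 in uninduced and −1.07 in induced cells (adjusted p = 0.202 and 0.0995, edgeR). The list's medians were −0.23 and −0.28, beside 0.02 and 0.03 over all genes. Of 9 other transcription kinases and cyclins, all tested, 0 passed on exon reads by edgeR with all libraries. The largest changes were those of Cdk12, a kinase of the RNA polymerase II tail, at −0.82 and −1.06 between genotypes (adjusted p = 0.143 and 0.0731, edgeR, and 0.00697 and 0.00337 by DESeq2, the second of which passed the threshold). On induction the largest was −0.27 for Cdk13 in WT cells and −0.32 for Cdk12 in ΔCdk8 cells.

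Over the 12 libraries, genes with the most similar pattern of log2(TPM + 1) were ranked by Pearson's r among 12130 genes, as a description of libraries that share genotype, clone and culture. For Med12 they were Zfp275, Kif4 and Tmem185a, all on the X chromosome, with r of 0.972 to 0.977. For Cdk8 they were Fam171b, Itpripl2 and Ints8 (0.923 to 0.969), for Cdk19 Tle6, Ebi3 and Enpp4 (0.931 to 0.936) and for Ccnc Eif1a, Lztfl1 and Ywhaz (0.952 to 0.978). For Med12l they were Vps54, Rcan3 and S100a13 (0.989 to 0.990), for Med13 Dars, Bag4 and Evi5 (0.959 to 0.969) and for Med13l Klhl24, Poli and Trp53inp2 (0.941 to 0.973). No member was among the 3 most similar genes of another.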

How the data were processed

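The authors enriched polyadenylated RNA, made stranded libraries (Illumina TruSeq) and mapped the reads in the CLC Genomics Workbench to GRCm38 (the submitters' processing notes list GRCm38 and mm10). They deposited 1 table of 25759 genes per library, not pooled, with raw counts of exon, intron, junction and gene reads, both in total and for unique matches. The deposited TPM values matched a recalculation from exon reads and exon lengths (largest relative difference 0.000196). The RPKM and fraction columns that the authors deposited were not used.

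Exon reads were tested in R 4.3.3 with edgeR 4.0.16 (filterByExpr at its count minimums of 10 per library and 15 in total, TMM, quasi-likelihood F test, Benjamini-Hochberg adjustment over all genes), with the 6 libraries of the 2 groups in each fit and all 12 for the interaction. A call needed more than a 2-fold change with an adjusted p under 0.01, after the study's methods. The standard error is the log2 fold change over the square root of F. Intron reads were fitted in the same way. Single values were compared with exact two-sided permutation tests, which cannot give a p below 0.1 with 3 against 3. Alternatives were DESeq2 1.42.0, other filters, reads, scalings and samples, each replicate left out, and the replicate or clone number as a block. Leaving out replicates with the block, the block with a threshold on adjusted p alone, and the comparison of intron patterns, were added after seeing the data. Deviations from the group means correlated at 0.616 to 0.721 between WT libraries of the same number and at 0.885 to 0.928 between libraries of the same clone. Between different numbers the range was −0.689 to 0.454 in WT and −0.737 to 0.0150 in ΔCdk8 cells. The positive WT values, 0.454 and 0.258, were those between replicates 2 and 3. The numbers were taken to pair the libraries. The edgeR and DESeq2 fits without the block were run on simulated counts as a check of the code. The simulated counts spread less between replicates than the main exon fits found here, and the block was not simulated. The outcome therefore says nothing on error rates in these data. Other tools were Python 3.11.15, numpy 2.4.6, pandas 2.3.3, scipy 1.17.1, biopython 1.88 and matplotlib 3.10.9.

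The 7 members and the gene lists were chosen with earlier results of these data known. All members were named. Of each related list, the genes past the threshold or, without one, the gene with the largest change were named, and of the neighbours within 1 Mb the nearest expressed one on each side for Cdk8, Med12 and Med12l. Gene models and sequences of the members came from GENCODE vM21 on GRCm38, whose identifiers, starts and ends matched the tables for all 7, and promoters from RefSeq. Guide sequences and protein sequences were not used here.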

Additional observations from a re-analysis of the deposited data

Results flagged for a closer look

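The effect of Xist induction on Med12 exon reads differed between the genotypes when the replicate or clone number was a block in the fit. The log2 fold change was −1.67 in WT cells (standard error 0.09) and −0.44 in ΔCdk8 cells (standard error 0.08), and the interaction was 1.25 (standard error 0.12, adjusted p = 0.00127, edgeR quasi-likelihood test). Of 529 X-linked genes, 17.6% passed in the same fit. Med12 TPM was lower after induction in 3 of 3 WT replicates, to 0.286 to 0.319 of the uninduced level, and in 3 of 3 clones, to 0.674 to 0.763. Without the block the same difference had an adjusted p of 0.0901 (edgeR), and with the block the adjusted p was 0.0136 without clone 8 and 0.0132 without clone 15 (edgeR).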

How the results depend on the processing

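Of 497 log2 fold changes of the members recomputed with other settings, intron fits and fits that left out a library with the block not counted, 454 kept their direction and side of the threshold, 37 changed sign, 4 came to pass it and 2 no longer passed it. Of the counts past the threshold 159 stayed within 1.5 times and 50 moved further. The cause of these changes was not tested, except that total gene reads include introns, which hold most Cdk8 reads. Over the libraries Med12l had as few as 58 exon reads and 5 intron reads and Med12 as few as 14 intron reads, which limits the precision of their values.

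By DESeq2 345 genes passed between genotypes in uninduced cells, 747 in induced cells, 628 on induction in WT cells, 31 in ΔCdk8 cells and 32 in the interaction. Med12, 1 of 7 members, passed by DESeq2 in induced cells (beside 5.52% of genes) and in the interaction (beside 0.222%) on exon reads. On intron reads it was also the 1 member that passed in induced cells (beside 4.9% of genes) and on induction in WT cells (beside 2.2%). At an adjusted p under 0.05 without a fold minimum 4 genes passed in induced cells and 569 on induction in WT cells. The same rule with the replicate block was added after seeing the data. It passed 3 members and 3092 genes (23.2%) on induction in WT cells and 2 members and 1533 genes (10.8%) in ΔCdk8 cells. In the interaction 2 members and 834 genes (5.78%) passed by it. With no filter other than 1 count, 1 gene passed in induced cells, and on intron reads 2 members there (Med12 and Med12l, beside 1.52% of genes) and 1 on induction in WT cells (beside 1.31% of genes). On junction reads 1 gene passed in induced cells and 87 on induction in WT cells. With all 12 libraries in 1 fit 1 member and 134 genes (0.929%) passed in induced cells.

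With the replicate block 531 genes (3.98%) passed on induction in WT cells, 200 (1.42%) in ΔCdk8 cells and 146 (1.01%) in the interaction. Med12 was the 1 member that passed in the interaction, and 1 member passed on intron reads in WT cells (beside 3.75% of genes). The pairing by replicate or clone number changed no other call of a member at this threshold.

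With 1 replicate or clone left out, 0 to 3 genes passed between genotypes in uninduced cells and 0 to 29 in induced cells, the highest count being without clone 11 in both, and 0 to 2 members passed on intron reads in induced cells, with 2 of them beside 11.1% of 11864 genes without clone 11. On induction in WT cells 0 to 1 members and 0 to 549 genes passed (0 without replicate 2 or 3, 549 or 4.06% without replicate 1). With the block 143 to 1209 genes passed (143 or 1.05% without replicate 2, 1209 or 8.93% without replicate 1). In the interaction with the block 0 to 1 members and 9 to 592 genes passed (9 or 0.062% without clone 8 or clone 15, 592 or 3.99% without WT replicate 1).

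On total gene reads the log2 fold change of Cdk8 was 0.32 between genotypes in uninduced and −0.65 in induced cells, 1.09 on induction in WT cells and −0.95 in the interaction, and intron reads, which make up most of them, gave 0.05 on induction without WT replicate 2. The largest log2 fold change in the report with another sign change was 0.08 in size. In induced cells Cdk8 was at −0.00027 by DESeq2 and −0.00091 on junction reads, and Med13l at −0.013 by DESeq2, −0.020 on total gene reads and −0.075 on junction reads. On induction in ΔCdk8 cells Cdk8 was at −0.0032 with TMM over autosomal genes, and Cdk19 at 0.0027 and Ccnc at 0.016 on total gene reads. In the interaction Med13 was at −0.015 by DESeq2, −0.011 with no filter, −0.0037 on total gene reads, −0.058 on junction reads and −0.0092 with the replicate block.

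With 1 replicate or clone left out, the log2 fold change in uninduced cells ranged from −0.085 to 0.19 for Ccnc and from −0.084 to 0.12 for Med13. In induced cells it ranged from −0.24 to 0.30 for Cdk8, from −0.18 to 0.099 for Med13 and from −0.030 to 0.058 for Med13l. On induction it ranged from −0.00060 to 0.11 for Med13 in WT cells, and in ΔCdk8 cells from −0.21 to 0.077 for Cdk19, from −0.10 to 0.017 for Ccnc and from −0.11 to 0.11 for Med13. In the interaction it ranged from −0.032 to 0.45 for Med12l and from −0.13 to 0.077 for Med13.

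In induced cells the Cdk8 share of kinase TPM differed by 0.177 percentage points between genotypes and the intron share of Cdk8 reads by −0.749 points. On intron reads scaled to all intron reads of the library, not to gene reads, the difference in the induced over uninduced ratio of Med12 was 0.524. The interaction on intron reads did not pass in any fit with all libraries.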
